A study of Mus musculus with 10 samples.

Results

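The enzymes that build heme were examined in RNA-seq of mouse liver and liver tumours. The 8 genes Alas1, Alas2, Alad, Uros, Urod, Cpox, Ppox and Fech were taken by symbol from a table of 56748 genes, and each symbol had a single row, so 8 of 8 were found.

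RNA was sequenced from 10 samples: 4 normal livers of wild-type FVB mice, 3 Akt/Nras tumours and 3 Akt/Nras/Foxo1AAA tumours, named after the genes that were delivered to the liver to raise them. Both groups are mouse models of hepatocellular carcinoma. The method was hydrodynamic tail vein injection, a rapid injection of plasmid DNA that reaches mainly hepatocytes, so both tumour groups carry Akt and Nras and differ by the added Foxo1AAA. Akt is a growth-promoting kinase, Nras is a small GTPase, and Foxo1AAA is a form of the transcription factor FOXO1 whose Akt phosphorylation sites are replaced by alanine. The forms of Akt and Nras, the promoters of the plasmids, and the age and sex of the mice are not stated in the labels. The comparisons ask how tumours differ from normal liver and what adding Foxo1AAA changes.

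Heme is an iron-containing ring that carries oxygen in hemoglobin and serves as the working centre of cytochromes P450, catalase and the respiratory chain. The pathway begins in the mitochondrion, where an ALA synthase joins glycine and succinyl-CoA, moves through the cytosol, and ends in the mitochondrion, where iron is inserted. ALAS1 is the housekeeping enzyme and the rate-limiting step in liver, where cytochromes P450 use much of the heme, and ALAS2 is the form of red cell precursors.

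In the deposited table, whose coordinates come with no named build, Alas1 (ENSMUSG00000032786) lies on chromosome 9 from 106110654 to 106125853 and Alas2 (ENSMUSG00000025270) on chromosome X from 149330371 to 149353634. Alad (ENSMUSG00000028393) and Urod (ENSMUSG00000028684) share chromosome 4, from 62427406 to 62438155 and from 116847162 to 116851610. Uros (ENSMUSG00000030979) lies on chromosome 7 from 133287972 to 133311801, Cpox (ENSMUSG00000022742) on chromosome 16 from 58490655 to 58537999 and Ppox (ENSMUSG00000062729) on chromosome 1 from 171103563 to 171108760. Fech (ENSMUSG00000024588) lies on chromosome 18 from 64585985 to 64623322. The values of a gene cover its whole row and do not separate transcripts.

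Values are FPKM, read counts scaled by gene length and by a factor per library, as the authors deposited them. Log2 changes are differences of group means of log2(FPKM + 1) from limma, which understate the change of genes with low FPKM, and folds are ratios of mean FPKM. A gene was called at a limma adjusted p under 0.05 over the 12439 genes tested. The depth of the libraries, as whole reads recovered from the FPKM, was 13.6 to 17.5 M in the normal group, 16.2 to 21.3 M in the Akt/Nras group and 15.4 to 20.7 M in the Akt/Nras/Foxo1AAA group. The factor per library did not follow these read totals. In the first normal liver, with 17.5 M reads, 1 read over 1 kb was worth 0.0854 FPKM. In the first Akt/Nras tumour, with 16.2 M reads, it was worth 0.0608 FPKM. Over genes, the median ratio of a library to the geometric mean of all libraries ran from 0.961 to 1.05. The deposited libraries were thus already close to each other at the typical gene. The FPKM did not sum to the same total in each group. The lowest and highest total were 692010 and 743203 in normal liver, 349619 and 381653 in Akt/Nras tumours, and 413812 and 444893 in Akt/Nras/Foxo1AAA tumours, so the changes of the 8 genes against normal liver were also computed with all totals made equal. For the other genes and lists, equal totals are given by list, and a gene is named where its call or direction differed. As a check of the labels, Foxo1 stood at 77.9 to 125 FPKM in the Akt/Nras/Foxo1AAA tumours and at 5.37 to 8.02 FPKM in the other 7 libraries. The hepatocyte markers Alb and Apoa1 were abundant in every library, at 18384 FPKM or more for Alb and 3160 FPKM or more for Apoa1.

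All 8 heme synthesis genes were lower in Akt/Nras tumours than in normal liver and were called, where 37.9% of all tested genes were called lower and 31.1% higher. In Akt/Nras/Foxo1AAA tumours 6 of the 8 were called lower, where 36.5% of all tested genes were called lower and 26.8% higher. Alas2 and Uros were the exceptions there, and neither was called. The median log2 change of the 8 genes was -1.34 in Akt/Nras tumours and -1.02 in Akt/Nras/Foxo1AAA tumours, beside -0.07 and -0.09 over all tested genes. Summed over the 8 genes, transcript levels were 634 ± 89.7 FPKM (SD, n = 4) in normal liver. They were 184 ± 11.1 FPKM (SD, n = 3) for the Akt/Nras group and 247 ± 15.6 FPKM (SD, n = 3) for the Akt/Nras/Foxo1AAA group. In whole tumours and livers, fewer cells of a type and less RNA per cell cannot be told apart.

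**Figure D1:**
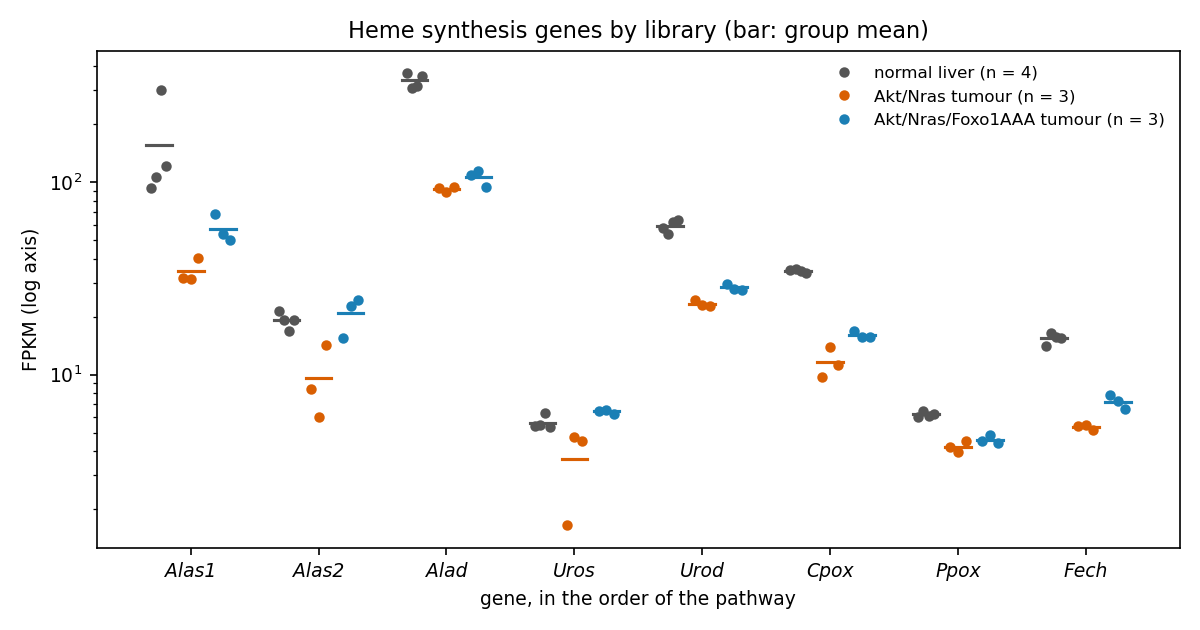
FPKM of the 8 heme synthesis genes in every library, on a log axis and in pathway order, with a short bar at each group's mean. Alad and Alas1 lead in all 3 groups, 1 normal liver stands far above the others for Alas1 at 302 FPKM, and 1 Akt/Nras tumour stands far below the others for Uros at 1.65 FPKM.

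The size of these changes depended on the scaling. Median ratio scaling, which divides each library by its median ratio to the geometric mean of all libraries, changed them little. All but Uros were then called lower in Akt/Nras tumours (limma adjusted p = 0.0621 for Uros). The same 6 genes as on the deposited FPKM were called lower in Akt/Nras/Foxo1AAA tumours. Larger shifts came with scalings on totals. With equal totals the median of all genes moved to 0.70 in Akt/Nras tumours and 0.46 in Akt/Nras/Foxo1AAA tumours, and the calls over all genes turned from 3871 higher and 4716 lower to 8608 higher and 1713 lower in the former, and from 3330 higher and 4544 lower to 7580 higher and 1681 lower in the latter. Alas1, Alad, Urod, Cpox and Fech were still called lower in Akt/Nras tumours on equal totals, Ppox was called higher, and Alas2 and Uros were not called. In Akt/Nras/Foxo1AAA tumours Alad, Urod, Cpox and Fech were still called lower on equal totals, Alas2, Uros and Ppox were called higher, and Alas1 was not called. A scaling moves all genes by nearly the same amount, so the distance of a gene from the median of all genes is nearly fixed over scalings. On the deposited FPKM that distance in Akt/Nras tumours ran from -1.91 for Alas1 to -0.40 for Ppox. In Akt/Nras/Foxo1AAA tumours it was 0.18 for Alas2 and 0.26 for Uros, and the other 6 genes lay below the median.

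**Figure D2:**
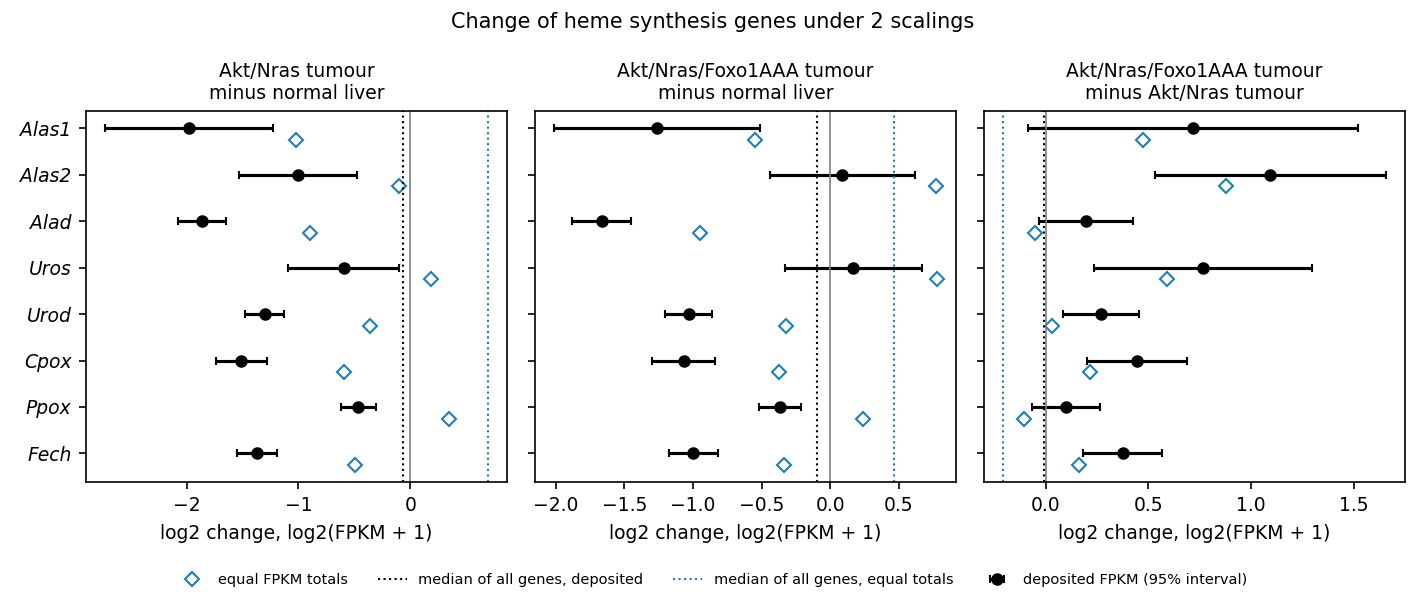
Log2 change of each gene in the 3 comparisons, on the log2(FPKM + 1) scale, with filled points and 95% intervals for the deposited FPKM, open diamonds for equal FPKM totals, and dotted lines for the median of all tested genes under each scaling. On the deposited FPKM the 8 genes lie between -1.98 and -0.47 in Akt/Nras tumours, and equal totals move every gene and the median of all genes to the right in both comparisons with normal liver and to the left between the tumour groups.

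Alas1 encodes the ALA synthase of liver. Its level was 93.0, 106, 302 and 122 FPKM in the normal livers, 31.7, 31.4 and 40.6 FPKM in the Akt/Nras tumours, and 68.3, 53.9 and 50.2 FPKM in the Akt/Nras/Foxo1AAA tumours. Every tumour was below every normal liver, and the third normal liver stood far above the other 3. Alas1 fell 4.50-fold in the Akt/Nras group (log2 change -1.98 with an SE of 0.34, limma adjusted p = 0.000371) and 2.71-fold in the Akt/Nras/Foxo1AAA group (log2 change -1.26, limma adjusted p = 0.00752). On equal totals the log2 change in Akt/Nras tumours was -1.02, still called. Without the third normal liver the log2 changes on the deposited FPKM were -1.60 and -0.89, and both were still called. The call in Akt/Nras/Foxo1AAA tumours was lost on equal totals (log2 change -0.55, limma adjusted p = 0.148) and when the scaling ignored the 50 most abundant genes (log2 change -0.67, limma adjusted p = 0.0818). It held with median ratio scaling (log2 change -1.15, limma adjusted p = 0.0122).

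In the RefSeq sequences of the windows from 250 bases before to 50 bases after the start sites (build GRCm38.p6), 7 of the 8 genes were found, with 10 windows in all. The core CGCANGCG of the site bound by NRF1, a transcription factor known to activate genes of mitochondrial function, was read on both strands and occurred in 8.21% of 32851 windows. It occurred in the windows of Alas1, Cpox and Uros, shown here because they place the same letters in the gene of the first step and in genes of later steps. Capitals mark the core, which reads CGCNTGCG on the opposite strand, and the 30 bases are given 5′ to 3′ on the gene's own strand.
Alas1 at chr9:106247935-106247964 (minus strand): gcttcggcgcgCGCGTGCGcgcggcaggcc
Alas1 at chr9:106247906-106247935 (minus strand): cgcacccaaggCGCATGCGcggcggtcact
Cpox at chr16:58670157-58670186 (plus strand): cacaggaggccCGCGTGCGagcagcaggac
Uros at chr7:133709323-133709352 (minus strand): cggtcacactgCGCCTGCGcgagtcccgcc
The motif was chosen after these windows had been read, and a match is a description of the letters only. FOXO1 binds GTAAACA, which was found on neither strand of the 10 windows and in 3.65% of all windows. The E-box CACGTG was found in windows of Alad, Urod and Uros and in 7.15% of all windows, and the GC box GGGCGG in windows of 6 of the genes and in 35.66% of all windows.

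Alas2 followed another course. It was measured at 21.5, 19.2, 16.9 and 19.3 FPKM in the normal livers, 8.45, 6.02 and 14.3 FPKM in the Akt/Nras tumours, and 15.4, 22.6 and 24.4 FPKM in the Akt/Nras/Foxo1AAA tumours. The Akt/Nras tumours lay below all other libraries, whereas the Akt/Nras/Foxo1AAA tumours overlapped normal liver. Alas2 was 2.0-fold lower in the Akt/Nras group (log2 change -1.0 with an SE of 0.24, limma adjusted p = 0.00317), a call that was lost on equal totals (log2 change -0.10, limma adjusted p = 0.686). The log2 change of Akt/Nras/Foxo1AAA tumours from normal liver was 0.09, with a 95% interval from -0.44 to 0.61 (limma adjusted p = 0.764), and on equal totals it was 0.77 (limma adjusted p = 0.0114).

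Since ALAS2 belongs to red cell precursors, the erythroid markers were read beside it. The beta-globin Hbb-bs was measured at 618, 350, 408 and 404 FPKM in the normal livers, 469, 343 and 988 FPKM in the Akt/Nras tumours, and 733, 1301 and 1259 FPKM in the Akt/Nras/Foxo1AAA tumours. Hba-a1, Hbb-bs and Hbb-bt were called higher in Akt/Nras/Foxo1AAA tumours than in normal liver, by 1.20, 1.29 and 1.30 on the log2 scale (limma adjusted p = 0.00659, 0.00783 and 0.00668), and none of the 3 was called in Akt/Nras tumours. On equal totals all 3 were called higher in Akt/Nras tumours too, Hbb-bs by 1.29 on the log2 scale (limma adjusted p = 0.00441). Summed over the 9 erythroid markers in the table, levels ran from 987 to 1770 FPKM in normal liver, from 1003 to 2509 FPKM in Akt/Nras tumours and from 2031 to 3666 FPKM in Akt/Nras/Foxo1AAA tumours. Slc4a1, the anion exchanger of the red cell membrane, was at most 0.0524 FPKM in normal liver and 0.138 to 0.73 FPKM in the tumours. Klf1, an erythroid transcription factor, was called lower in both tumour groups, from 4.43 to 6.73 FPKM in normal liver to at most 0.476 FPKM in tumours. Gata1, Epb42 and Ermap were below 0.35 FPKM in every library. Hba-a2, which is nearly identical to Hba-a1 so that reads can be split between the pair, ran from 0.167 to 60.2 FPKM and was not called in any comparison.

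Per 100 FPKM of Hbb-bs, Alas2 amounted to 3.48, 5.48, 4.15 and 4.77 FPKM in the normal livers, 1.80, 1.75 and 1.45 FPKM in the Akt/Nras tumours, and 2.10, 1.74 and 1.93 FPKM in the Akt/Nras/Foxo1AAA tumours. This ratio does not depend on the scaling of libraries. Both tumour groups lay below every normal liver and overlapped each other. The exact two-sided permutation p was 0.0571 for either tumour group against normal liver (n = 3 and n = 4), the smallest that these group sizes allow, and 0.3 between the tumour groups (n = 3 each), where the smallest possible is 0.1. With Hba-a1 or Hbb-bt as the denominator the exact permutation p was again 0.0571 against normal liver. The globins moved largely together over the libraries, so these are not separate tests. The ratio was chosen after seeing the data, so its p-values are a description only. Among the tumours, the 2 libraries with the most Hbb-bs were also those with the most Alas2. The order differed for the next pair. The third Akt/Nras tumour had 988 FPKM of Hbb-bs and 14.3 FPKM of Alas2. The first Akt/Nras/Foxo1AAA tumour had 733 FPKM of Hbb-bs and 15.4 FPKM of Alas2. The part of blood cells in the Alas2 levels was not tested.

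**Figure D3:**
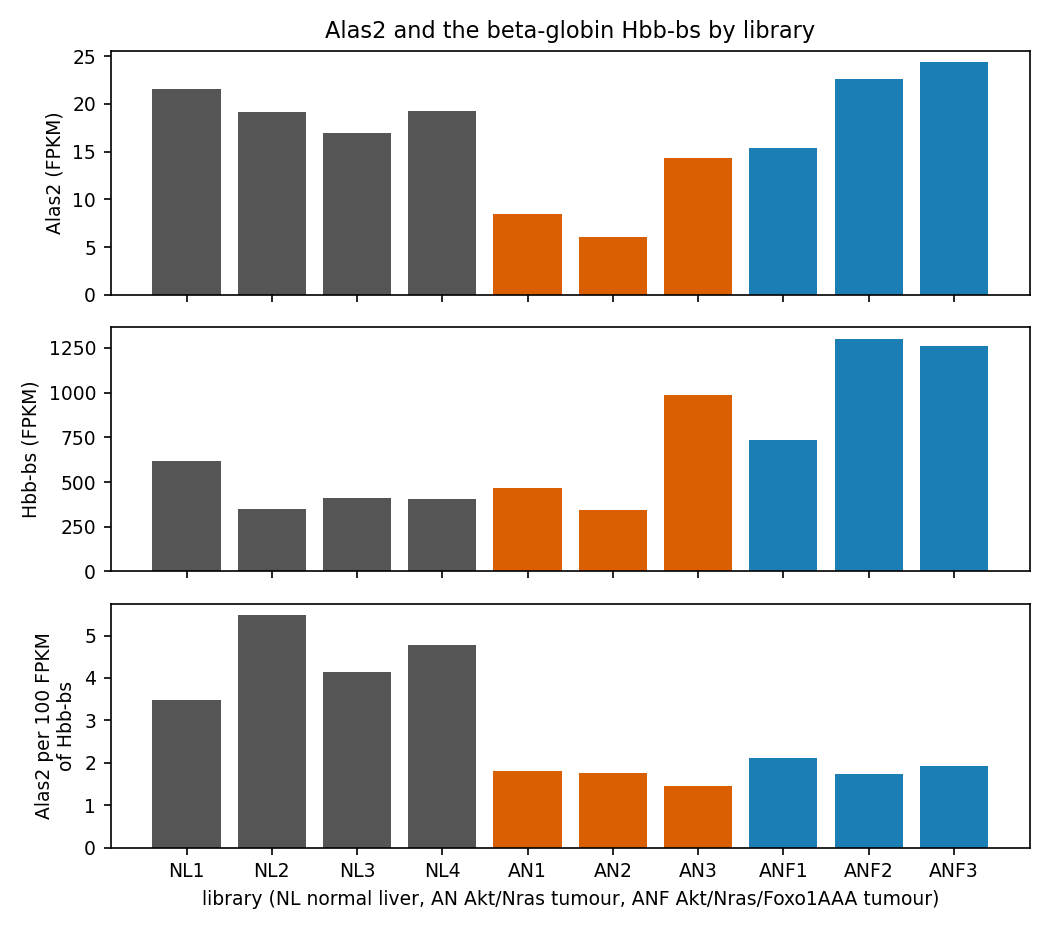
Alas2 in FPKM (top), the beta-globin Hbb-bs in FPKM (middle) and Alas2 per 100 FPKM of Hbb-bs (bottom) in each of the 10 libraries, with bars coloured by group. The 6 tumours lie between 1.45 and 2.10 in the bottom panel and the 4 normal livers between 3.48 and 5.48, although Alas2 itself overlaps between normal liver and Akt/Nras/Foxo1AAA tumours.

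Alas2 and Cpox were the genes with the letters AGATAA, the site of the GATA factors that drive red cell genes, in their windows, as were 11.18% of all windows. The stretch of Alas2 before its start site and the 30 bases of Cpox around its start site are shown because the GATA site is a known feature of erythroid genes. Capitals mark the site, which is read here as TTATCT, its letters on the opposite strand.
Alas2 at chrX:150547271-150547395 (plus strand): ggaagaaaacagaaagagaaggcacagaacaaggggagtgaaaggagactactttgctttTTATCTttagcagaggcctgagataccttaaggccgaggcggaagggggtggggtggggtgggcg
Cpox at chr16:58670200-58670229 (plus strand): cagggtgcagtcTTATCTgctctttccggg

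Alad encodes ALA dehydratase, which joins 2 molecules of ALA into porphobilinogen, and had the highest level of the 8 genes in each group. It was measured at 368, 309, 318 and 357 FPKM in the normal livers, 93.1, 88.9 and 94.2 FPKM in the Akt/Nras tumours, and 109, 114 and 94.2 FPKM in the Akt/Nras/Foxo1AAA tumours. No tumour came near the lowest normal liver. Alad fell 3.68-fold in the Akt/Nras group (log2 change -1.86 with an SE of 0.10, limma adjusted p = 7.27e-08) and 3.19-fold in the Akt/Nras/Foxo1AAA group (log2 change -1.67, limma adjusted p = 2.79e-07), and both calls held on equal totals, at log2 changes of -0.90 and -0.95.

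Uros encodes uroporphyrinogen III synthase, which closes the ring, and was among the 2 lowest of the 8 genes in every group. It was measured at 5.42, 5.45, 6.28 and 5.36 FPKM in the normal livers, 1.65, 4.73 and 4.51 FPKM in the Akt/Nras tumours, and 6.50, 6.57 and 6.24 FPKM in the Akt/Nras/Foxo1AAA tumours. A single library, the first Akt/Nras tumour, set much of the difference. Uros was 1.55-fold lower in the Akt/Nras group (log2 change -0.60 with an SE of 0.22, limma adjusted p = 0.0344). Without that tumour the log2 change was -0.24, still called (limma adjusted p = 0.0288), whereas without any 1 of the normal livers the adjusted p ran from 0.0541 to 0.0756, and on equal totals the log2 change was 0.19. In Akt/Nras/Foxo1AAA tumours it was 0.17, with a 95% interval from -0.33 to 0.66 (limma adjusted p = 0.532). In the deposited coordinates Uros overlaps Bccip on the opposite strand, which averaged 47.8 FPKM in normal liver and 29.5 FPKM in Akt/Nras tumours, and the labels do not say whether reads were counted by strand.

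Urod encodes uroporphyrinogen decarboxylase, the last cytosolic enzyme. It stood at 57.8, 53.9, 62.0 and 63.3 FPKM in the normal livers, 24.5, 23.0 and 22.7 FPKM in the Akt/Nras tumours, and 29.7, 28.0 and 27.6 FPKM in the Akt/Nras/Foxo1AAA tumours. The 3 groups did not overlap. Urod fell 2.53-fold in the Akt/Nras group (log2 change -1.30 with an SE of 0.08, limma adjusted p = 1.76e-07) and 2.09-fold in the Akt/Nras/Foxo1AAA group (log2 change -1.03, limma adjusted p = 1.48e-06), and both calls held on equal totals, at -0.36 and -0.33.

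The last 3 enzymes act at the mitochondrion. Cpox, which encodes coproporphyrinogen oxidase, was measured at 35.2, 35.5, 34.7 and 33.6 FPKM in the normal livers, 9.70, 13.9 and 11.3 FPKM in the Akt/Nras tumours, and 16.8, 15.7 and 15.7 FPKM in the Akt/Nras/Foxo1AAA tumours. The groups did not overlap, with Akt/Nras/Foxo1AAA tumours in between. Cpox fell 2.98-fold in the Akt/Nras group (log2 change -1.51 with an SE of 0.10, limma adjusted p = 4.15e-07) and 2.16-fold in the Akt/Nras/Foxo1AAA group (log2 change -1.07, limma adjusted p = 8.12e-06), and both calls held on equal totals, at -0.59 and -0.37.

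Ppox, which encodes protoporphyrinogen oxidase, changed least of the genes called lower in both comparisons. Its level was 6.01, 6.49, 6.09 and 6.26 FPKM in the normal livers, 4.23, 3.95 and 4.50 FPKM in the Akt/Nras tumours, and 4.53, 4.83 and 4.43 FPKM in the Akt/Nras/Foxo1AAA tumours. Both tumour groups lay below normal liver and overlapped each other. The log2 changes of -0.47 and -0.37 (limma adjusted p = 0.000144 and 0.000946) turned to 0.35 and 0.24 on equal totals. Ppox overlaps B4galt3 on the opposite strand, which averaged 1.74 FPKM in normal liver and 3.59 FPKM in Akt/Nras tumours.

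Fech encodes ferrochelatase, which inserts the iron. It was measured at 14.1, 16.5, 15.7 and 15.6 FPKM in the normal livers, 5.44, 5.48 and 5.14 FPKM in the Akt/Nras tumours, and 7.88, 7.27 and 6.59 FPKM in the Akt/Nras/Foxo1AAA tumours. As for Urod and Cpox, the groups did not overlap and Akt/Nras/Foxo1AAA tumours lay in between. Fech fell 2.89-fold in the Akt/Nras group (log2 change -1.37 with an SE of 0.08, limma adjusted p = 1.49e-07) and 2.13-fold in the Akt/Nras/Foxo1AAA group (log2 change -1.0, limma adjusted p = 2.23e-06), and both calls held on equal totals, at -0.50 and -0.34.

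Within each library, the make-up of the summed FPKM of the 8 genes is free of the scaling between libraries. Alas1 made up 15.5, 19.2, 39.6 and 19.6% of the sum in the normal livers, 17.7, 17.7 and 20.6% in the Akt/Nras tumours, and 26.4, 21.3 and 21.9% in the Akt/Nras/Foxo1AAA tumours. The means were 23.5 ± 10.9% (SD, n = 4), 18.7 ± 1.67% (SD, n = 3) and 23.2 ± 2.81% (SD, n = 3). The exact two-sided permutation p against normal liver was 0.743 for Akt/Nras and 0.914 for Akt/Nras/Foxo1AAA tumours. The third normal liver alone set the upper end of the normal range. Without it the Akt/Nras/Foxo1AAA tumours were 5.13 percentage points higher and all above the other 3 livers (exact permutation p = 0.1, the smallest possible), and the Akt/Nras tumours were 0.588 points higher (exact permutation p = 0.8). Between the tumour groups every Akt/Nras/Foxo1AAA tumour was above every Akt/Nras tumour, with an exact permutation p of 0.1 (n = 3 each), the smallest possible. Alad gave 54.1 ± 8.50% (SD, n = 4), 49.98 ± 2.18% (SD, n = 3) and 42.8 ± 2.11% (SD, n = 3) in the same order of groups. Ppox took 0.799 to 1.18% in normal liver, 2.23 to 2.37% for Akt/Nras and 1.75 to 1.93% for Akt/Nras/Foxo1AAA tumours, with no overlap among the 3 groups. The share of Alas2 ran from 2.22 to 3.58% in normal liver, from 3.39 to 7.26% in Akt/Nras tumours and from 5.97 to 10.6% in Akt/Nras/Foxo1AAA tumours.

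**Figure D4:**
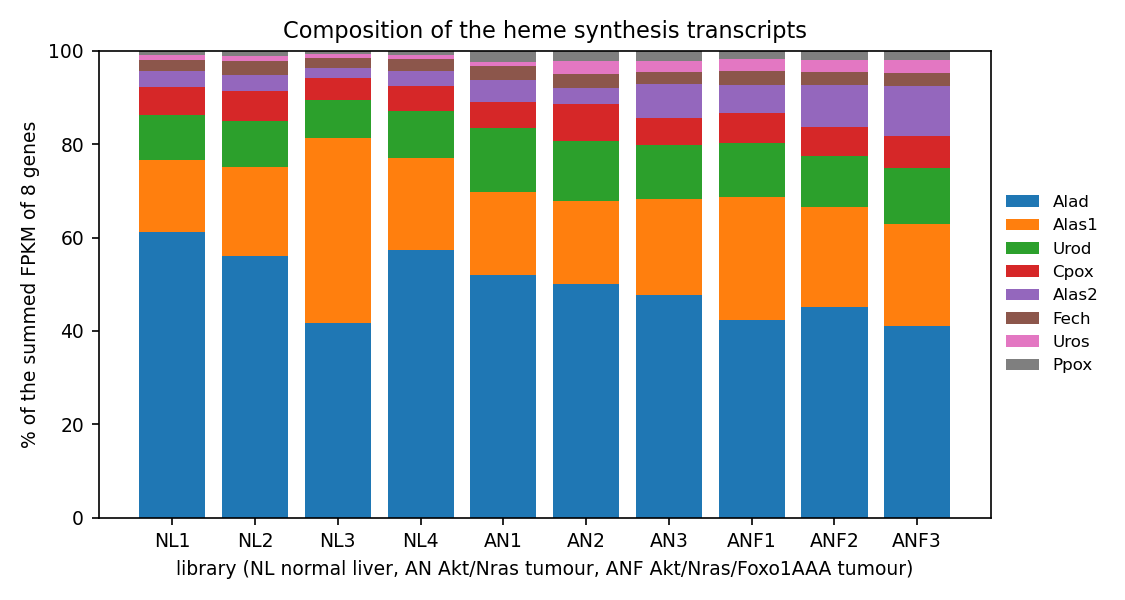
Stacked bars of the percent of the summed FPKM of the 8 genes given by each gene, 1 bar per library (NL normal liver, AN Akt/Nras tumour, ANF Akt/Nras/Foxo1AAA tumour). Alad and Alas1 fill most of every bar, Alas1 reaches 39.6% in the third normal liver, and Alas2 reaches 10.6% in the third Akt/Nras/Foxo1AAA tumour.

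Set directly against Akt/Nras tumours, the Akt/Nras/Foxo1AAA tumours had higher Alas2, Cpox and Fech. These 3 of the 8 genes were called higher and none lower, where 7.93% of all tested genes were called higher and 4.13% lower. Alas2 was 2.17-fold higher (log2 change 1.09, SE 0.25, limma adjusted p = 0.0225), Cpox 1.38-fold (log2 change 0.45, SE 0.11, limma adjusted p = 0.0281) and Fech 1.35-fold (log2 change 0.37, SE 0.09, limma adjusted p = 0.0213). For 7 of the 8 genes every Akt/Nras/Foxo1AAA tumour lay above every Akt/Nras tumour, Ppox being the exception, where this held for 16.4% of all tested genes. For Alad the gap was narrow, since the highest Akt/Nras tumour and the lowest Akt/Nras/Foxo1AAA tumour were both at 94.2 FPKM to 3 digits. Uros (log2 change 0.77, limma adjusted p = 0.0644), Urod (0.27, 0.0608), Alas1 (0.72, 0.221), Alad (0.20, 0.237) and Ppox (0.10, 0.411) were not called. For Alas1 the 95% interval of the difference ran from -0.09 to 1.52, which includes both no change and a rise of the size seen for Alas2.

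The 3 calls between the tumour groups were fragile. None was made when only these 2 groups entered the fit, where the adjusted p was 0.0984 for Alas2, 0.111 for Cpox and 0.0789 for Fech in limma, although 6 of the 8 had an unadjusted p under 0.05. On equal totals Alas2 alone was called (log2 change 0.88, limma adjusted p = 0.0255), and calls over all genes turned from 986 higher and 514 lower to 656 higher and 3241 lower. Without the second Akt/Nras/Foxo1AAA tumour none of the 8 was called (5 at an unadjusted p under 0.05), and without the third Akt/Nras tumour or the first Akt/Nras/Foxo1AAA tumour 1 was. Alas2 also lost its call without the first or the second Akt/Nras tumour (limma adjusted p = 0.0638 and 0.0539), and Cpox without the first (limma adjusted p = 0.0655). The globins moved beside Alas2, by 0.97 for Hbb-bs and 1.01 for Hba-a1 on the log2 scale (limma adjusted p = 0.115 and 0.0761). The hepatocyte markers moved beside Cpox and Fech: 4 of 10 were called higher and none lower, among them Apoa1, the main protein of high-density lipoprotein, 2.29-fold (limma adjusted p = 0.00851), and their part in the differences of Cpox and Fech was not tested.

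The mitochondrial partners of the pathway carry its substrates, iron and intermediates or act on its enzymes. Of 15 tested, 14 were called lower and none higher in each tumour group against normal liver, with median log2 changes of -1.02 in Akt/Nras tumours and -0.77 in Akt/Nras/Foxo1AAA tumours. Abcb10, a mitochondrial transporter needed for heme synthesis, fell most, from 13.7 to 15.2 FPKM in normal liver to 2.97 to 3.5 FPKM in Akt/Nras tumours (4.41-fold, limma adjusted p = 4.69e-07) and 2.98 to 5.16 FPKM in Akt/Nras/Foxo1AAA tumours (3.59-fold, limma adjusted p = 1.88e-06). Slc25a38, the mitochondrial glycine carrier, fell in both (log2 changes -1.33 and -1.04), as did Slc25a37, the mitochondrial iron importer mitoferrin 1 (-1.01 and -0.67). Clpx, the chaperone that activates ALA synthase, was not called in either, at 20.6 to 29.9 FPKM over all libraries, and was called higher in both on equal totals (log2 changes 0.97 and 0.79). On equal totals 4 of the 15 were called higher and 5 lower in Akt/Nras tumours, and 4 higher and 4 lower in Akt/Nras/Foxo1AAA tumours. Abcb10 was still lower in both, Slc25a38 in Akt/Nras tumours alone and Slc25a37 in neither. Between the tumour groups 3 were called higher in Akt/Nras/Foxo1AAA tumours, Pgrmc1 by 1.59-fold (limma adjusted p = 0.0154), Slc25a39 and Iscu. The latter pair lost the call on equal totals, and Pgrmc1 lost it without the first or the second Akt/Nras/Foxo1AAA tumour (limma adjusted p = 0.0526 and 0.0567). Pgrmc1 encodes a heme-binding membrane protein.

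The genes around succinyl-CoA and glycine, not all of which supply them, went the same way for 8 of 9 tested. These were called lower in both comparisons against normal liver, and the medians of the list were -1.43 and -1.22. Shmt1, which makes glycine from serine in the cytosol, fell 5.22-fold in Akt/Nras tumours (limma adjusted p = 1.09e-07) and 3.18-fold in Akt/Nras/Foxo1AAA tumours (limma adjusted p = 1.84e-06). Gldc, which breaks glycine down, was the exception, 1.31-fold higher in Akt/Nras tumours (limma adjusted p = 0.0490). That call was lost when any 1 of 5 of the 7 libraries was left out, with a limma adjusted p of up to 0.201 without the first Akt/Nras tumour, where the log2 change was 0.22 against 0.37 with all libraries, and the third Akt/Nras tumour, at 29.2 FPKM, lay below the highest normal liver at 29.6 FPKM. Its increase in the Akt/Nras/Foxo1AAA group was 1.58-fold (limma adjusted p = 0.00345). On equal totals 6 and 7 of the 9 were called lower and 2 higher, Shmt1 lower and Gldc higher in both comparisons. Ogdh turned from called lower to called higher in both (log2 change 0.39 in each).

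The heme proteins of hepatocytes, counted with the P450 reductase Por, were lower in both tumour groups with 1 exception. Of 20 tested, 19 were called lower and 1 higher in each tumour group, with median log2 changes of -2.80 and -1.96, and on equal totals 17 and 15 were called lower and 2 and 1 higher. The medians of the heme synthesis genes stand above at -1.34 and -1.02, and the difference between the lists was not tested. Cycs, which encodes cytochrome c, and Sdhc, a subunit of succinate dehydrogenase, changed less than the enzyme median in Akt/Nras tumours, by -0.67 and -0.90 on the log2 scale, and on equal totals Cycs was higher (log2 change 0.27) and Sdhc was not called. Cyp2c29, a drug-metabolising cytochrome P450, ran from 1283 to 1566 FPKM in normal liver, from 3.99 to 16.3 FPKM in Akt/Nras tumours and from 33.9 to 56.9 FPKM in Akt/Nras/Foxo1AAA tumours (154-fold and 32.9-fold lower, limma adjusted p = 4.15e-08 and 7.94e-07). Cyp4a14, a fatty acid hydroxylase, was the member called higher, 2.78-fold and 3.20-fold (limma adjusted p = 0.0226 and 0.0139), from at most 1.79 FPKM in normal liver to at most 5.68 FPKM in tumours. Its call in Akt/Nras tumours was lost without the second of these tumours or the second normal liver (limma adjusted p = 0.104 and 0.0583), and that in Akt/Nras/Foxo1AAA tumours without the third of these (limma adjusted p = 0.0585). Between the tumour groups 11 of the 20 were called higher in Akt/Nras/Foxo1AAA tumours and none lower. Cyp8b1, a P450 of bile acid synthesis, ran there from 16.7 to 54.8 FPKM against 1.06 to 2.82 FPKM (15.3-fold, limma adjusted p = 0.00327).

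Genes of heme breakdown split. Hmox1, the inducible heme oxygenase, rose from 10.9 to 14.8 FPKM in normal liver to 18.6 to 22.1 FPKM in Akt/Nras tumours (1.51-fold, limma adjusted p = 0.000742) and 20.0 to 22.4 FPKM in Akt/Nras/Foxo1AAA tumours (1.60-fold, limma adjusted p = 0.00039). The other 4 of 5 were called lower in Akt/Nras tumours and 3 of them in Akt/Nras/Foxo1AAA tumours, led by Ugt1a1, which conjugates bilirubin and was 14.3-fold and 7.48-fold lower (limma adjusted p = 2.12e-08 and 1.59e-07). Of 10 genes of heme transport and scavenging 3 were called higher and 5 lower in each tumour group. Hp and Hpx, which encode the plasma scavengers haptoglobin and hemopexin, and Slc48a1, the heme transporter HRG1, were the 3 that rose, Hp by 2.97-fold and 3.42-fold (limma adjusted p = 5.22e-05 and 2.95e-05). Fabp1, a fatty acid binding protein that also binds heme, fell 26.5-fold and 10.8-fold (limma adjusted p = 3.48e-07 and 5.19e-06). On equal totals 3 of the 5 breakdown genes were called higher and 2 lower in Akt/Nras tumours, and 2 and 1 in Akt/Nras/Foxo1AAA tumours. Of the 10 transport genes 4 were then called higher and 2 lower in each, and Hmox1, Ugt1a1, Hp, Hpx, Slc48a1 and Fabp1 kept their calls.

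**Figure D5:**
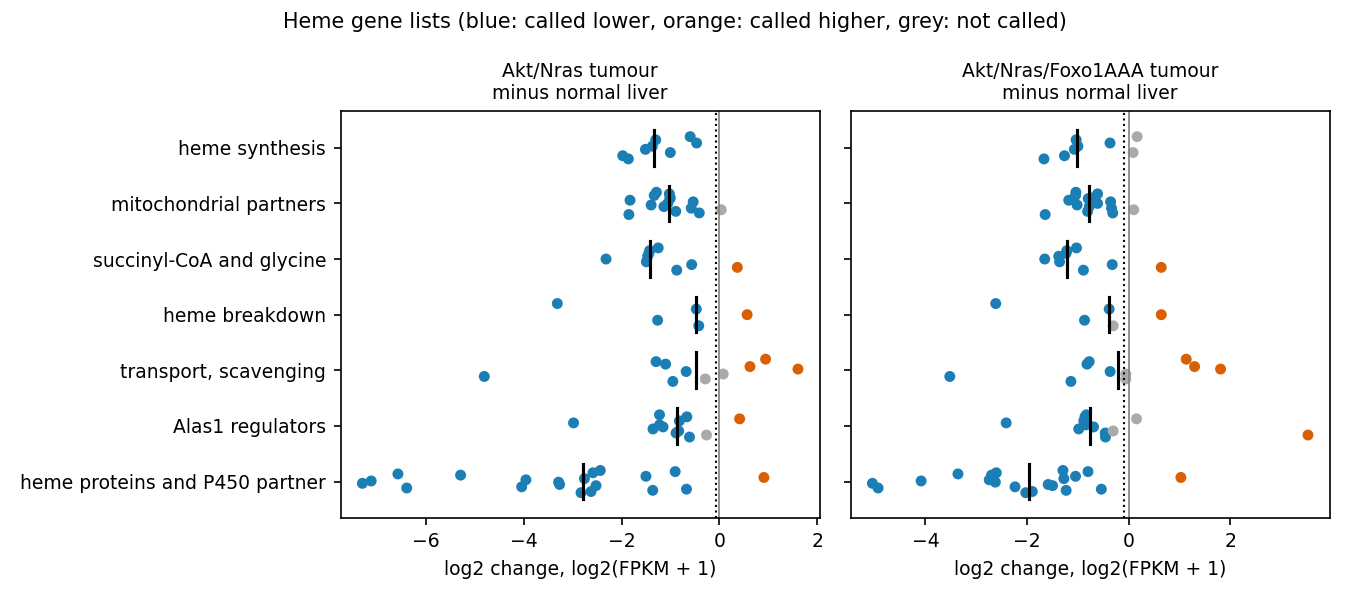
Log2 change from normal liver, on the log2(FPKM + 1) scale of the deposited FPKM, of each tested gene in 7 lists around heme, with a black bar at each list's median and a dotted line at the median of all genes. The median of the heme proteins lies at -2.80 in Akt/Nras tumours, and that of heme synthesis at -1.34, and 3 genes of transport and scavenging lie to the right of 0.5.

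Of 12 regulators known to act on Alas1, 10 were called lower and 1 higher in Akt/Nras tumours, and 9 lower and 1 higher in Akt/Nras/Foxo1AAA tumours. Nr1i3, the nuclear receptor CAR, which induces Alas1 and cytochromes P450, ran from 8.88 to 10.1 FPKM in normal liver, from 0.255 to 0.393 FPKM in Akt/Nras tumours and from 0.71 to 1.21 FPKM in Akt/Nras/Foxo1AAA tumours (30.7-fold and 9.80-fold lower, limma adjusted p = 7.29e-09 and 3.81e-08). Ppargc1a, which encodes the coactivator PGC-1alpha, fell in both, by 0.67 and 0.86 on the log2 scale (limma adjusted p = 0.000644 and 0.000136). Nrf1 was the gene called higher in Akt/Nras tumours, 1.66-fold from a level of 0.802 to 1.19 FPKM (limma adjusted p = 0.00245). Foxo1 was the gene called higher in Akt/Nras/Foxo1AAA tumours, to which a form of it was delivered, so its call there is a check of the labels only. On equal totals 2 were called higher and 2 lower in Akt/Nras tumours, and 3 and 3 in Akt/Nras/Foxo1AAA tumours. Nr1i3 was then still lower in both, Ppargc1a was not called in Akt/Nras tumours (log2 change -0.06), Nrf1 was also called higher in Akt/Nras/Foxo1AAA tumours and Foxo1 in Akt/Nras tumours.

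Markers of cell types changed as well, and as a list those of hepatocytes alone fell with the enzymes. All 10 hepatocyte markers were called lower in both tumour groups against normal liver, and their summed level ran from 69912 to 73801 FPKM in normal liver, from 25277 to 27766 FPKM in Akt/Nras tumours and from 29781 to 41526 FPKM in Akt/Nras/Foxo1AAA tumours. G6pc, the glucose-6-phosphatase of hepatocytes, fell 12.9-fold and 12.3-fold (limma adjusted p = 6.82e-08 and 1.44e-07). Cholangiocyte markers were called higher for 4 of 4 tested genes in Akt/Nras tumours and 3 of 4 in Akt/Nras/Foxo1AAA tumours, with summed levels from 16.0 to 24.1 FPKM in normal liver, from 4099 to 5796 FPKM in Akt/Nras tumours and from 2658 to 5383 FPKM in Akt/Nras/Foxo1AAA tumours, nearly all of it Spp1. Markers of stellate and endothelial cells were called higher for 4 of 5 in each tumour group, Col1a1 by 33.7-fold and 23.3-fold (limma adjusted p = 5.60e-09 and 1.79e-08). Macrophage and leukocyte markers were called higher for 3 of 4 in each. The fourth, Clec4f of Kupffer cells, the resident liver macrophages, gave most of the summed level in normal liver. It ran from 37.3 to 65.7 FPKM there and from 10.7 to 35.2 FPKM in Akt/Nras tumours, 2.26-fold lower (limma adjusted p = 0.00568), a call that was lost on equal totals. In Akt/Nras/Foxo1AAA tumours it was not called, at 38.9 to 53.4 FPKM. The summed levels of these markers overlapped, from 50.3 to 83.8 FPKM in normal liver, from 41.4 to 72.4 FPKM in Akt/Nras tumours and from 71.6 to 85.6 FPKM in Akt/Nras/Foxo1AAA tumours. On equal totals 8 of the 10 hepatocyte markers were called lower and none higher in each tumour group, Alb not being called in either. All 4 cholangiocyte markers and all 5 stellate and endothelial markers were then called higher in both. The part of these cell types in the levels of the heme synthesis genes was not tested.

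Genes whose pattern was most like each enzyme were ranked by Pearson's r of log2(FPKM + 1) over the 10 libraries. These r rest largely on the differences between the 3 groups, can also rest on single libraries, and are given as a description. Fech was closest to Cyp2d37-ps and Qdpr (r = 0.998 for each), Alad to Nfu1 (0.997) and Atad3a (0.996), Urod to Ttc39c and Rcl1 (0.996 for each), Ppox to Eefsec (0.995) and Ell (0.992), and Cpox to Cyp1a2 (0.995) and Vwa8 (0.994). Alas1 was closest to Dnajc19-ps (0.982) and Mrpl28 (0.971), and Uros to Dhrs7b (0.949) and H2bc4 (0.933). Alas2 was closest to Cyp2c39 (0.933) and Cyp2c38 (0.905), a pair of cytochromes P450. Genes under 5 mean FPKM, among them Slc4a1, Gata1, Epb42, Ermap and Klf1, were not among the candidates. Cyp2c39 ran from 88.5 to 99.5 FPKM in normal liver, from 16.3 to 37.2 FPKM in Akt/Nras tumours and from 88.8 to 154 FPKM in Akt/Nras/Foxo1AAA tumours. Like Alas2, it was lowest in the Akt/Nras tumours, with the third of them the highest, and overlapped between the other groups.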

How the data were processed

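Gene expression was measured by RNA-seq in 10 mouse samples, grouped by their titles (4 normal livers, 3 Akt/Nras tumours, 3 Akt/Nras/Foxo1AAA tumours). The authors deposited 1 table of FPKM values per gene and library, per the file headers. The submitters' processing notes name FastQC 0.11.7 and the build GRCm38. The aligner, counter, strand setting and the build of the table's coordinates are not stated in the labels or the table's header: 1472 of 52073 genes shared with a GRCm38 annotation had identical coordinates. Per the labels' protocols, libraries were made by polyA capture or rRNA removal.

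FPKM times gene length gave whole reads, within 0.05 reads, for 100% of values. Nothing in the labels says that replicates are separate mice, so the p-values speak only of the spread among these samples, and that may be technical. Genes with at least 1 FPKM in at least 3 libraries (12439) were fitted in limma 3.58.1 (R 4.3.3, eBayes with trend, 1 fit of 10 libraries) on log2(FPKM + 1), with Benjamini-Hochberg adjustment over all of them and two-sided tests. The fit was tested on simulated data. Shares and ratios within a library were compared by exact permutation tests (SciPy 1.17.1). Alternatives changed the pseudocount, the filter, the scaling (equal totals, the 50 most abundant genes left out, median ratio), the samples fitted, library weights, the replicate block and the reads (limma-voom on recovered reads), and left out each library. The ratio of Alas2 to globin was chosen after seeing the data. The members and lists were chosen with earlier results of these data known. From every other list the called gene with the largest increase and the one with the largest decrease per comparison were named, or, where none was called, the gene of highest mean. For each enzyme the 2 most alike genes of at least 5 mean FPKM were named, predicted models left out. Erythroid markers were named beside Alas2, and Ahsp had no row. Further list members and neighbouring genes were named after their values were seen. Promoter windows came from RefSeq, where Fech had no entry. Some genes are not reported here.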

Additional observations from a re-analysis of the deposited data

Results flagged for a closer look

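Among the 4 normal livers, the highest value stood apart from the rest by Dixon's criterion for 3 of 34 genes checked, where chance alone gives about 1 in 20. Alas1 was at 301.6 FPKM in the third normal liver and at most 122 FPKM in the other 3. Uros was at 6.283 FPKM in the same liver and at most 5.45 FPKM in the others. Col1a1 was at 2.603 FPKM in the first normal liver and at most 1.61 FPKM in the others. Of the 12 regulators of Alas1, 2 were highest and 3 lowest of the 4 livers in the third, and of the 20 heme proteins 8 were highest and 3 lowest there.

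The change from normal liver differed between the tumour groups for 3 enzymes by the test of the difference itself: Alas2 by 1.09 (limma adjusted p = 0.0225), Cpox by 0.446 (limma adjusted p = 0.0281) and Fech by 0.374 (limma adjusted p = 0.0213) on the log2 scale. Over all tested genes 7.93% were called higher and 4.13% lower in that comparison. None of the 3 was called with only the 2 groups fitted or with the replicate block, and Alas2 alone was called on equal totals. For Uros, every Akt/Nras tumour lay below the mean of normal liver and every Akt/Nras/Foxo1AAA tumour above it, and the difference of 0.765 was not called (limma adjusted p = 0.0644).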

How the results depend on the processing

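In Akt/Nras tumours against normal liver the number of enzymes called was 5 (all lower) when the scaling ignored the 50 most abundant genes and with limma-voom on recovered reads, and on equal totals it was 5 lower and 1 higher. In Akt/Nras/Foxo1AAA tumours the number called higher was 3 on equal totals, 2 with the abundant genes left out and 1 with limma-voom. Over all tested genes 7580, 6844 and 5975 were called higher in the same order, and 1681, 1916 and 2270 lower. Between the tumour groups the number called, all higher, was 1 with no filter, on equal totals and with limma-voom. It was 4 with median ratio scaling, 5 with a minimum of 5 FPKM, 6 with library weights, and 0 with only the 2 groups fitted. Over all tested genes, 656 were called higher and 3241 lower on equal totals, and 779 and 2780 with limma-voom. With median ratio scaling the counts were 1063 and 495. Calls over all genes under the other settings are not given here, so the enzyme counts under them have no background. No direction turned with median ratio scaling. The direction turned under 3 other scalings, in the order equal totals, abundant genes left out and limma-voom. The log2 changes of Ppox were then 0.35, 0.13 and 0.11 in Akt/Nras tumours and 0.24, 0.14 and 0.036 in Akt/Nras/Foxo1AAA tumours. Uros in Akt/Nras tumours was 0.19 on equal totals. Between the tumour groups Alad was -0.050 on equal totals, and Ppox was -0.11 on equal totals and -0.074 with limma-voom. The difference of Akt/Nras/Foxo1AAA tumours from normal liver in the share of Alas1 was 1.17 percentage points without Alas2 in the sum, against -0.25 with it. The cause was not tested.

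Leaving out 1 library at a time gave 7 to 8 enzymes called, all lower, in Akt/Nras tumours, 6 to 6 in Akt/Nras/Foxo1AAA tumours and 0 to 3 between the tumour groups. The difference in the share of Alas1 from normal liver ran from -7.46 to 0.588 percentage points in Akt/Nras tumours and from -2.92 to 5.13 in Akt/Nras/Foxo1AAA tumours, both highest without the third normal liver. The log2 change of Alas2 in Akt/Nras/Foxo1AAA tumours ran from -0.033 to 0.28, the lower value without the third of these tumours.

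Same-numbered libraries did not deviate together more than others (correlations from -0.17 to 0.11, beside -0.15 to 0.20 for differently numbered ones). No pairing by number was seen, and with so few libraries per group the check cannot exclude one. With the replicate block the enzymes called between the tumour groups numbered 0 in limma (5 at an unadjusted p under 0.05). Groups of 3 and 4 limit the exact tests to 0.0571 or more. The lowest recovered count behind an enzyme was 97 reads, for Uros in the first Akt/Nras tumour.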

Other observations

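Klf1, which encodes an erythroid transcription factor, was lower in both tumour groups, where no globin was called lower. It was at 5.62, 4.43, 6.06 and 6.73 FPKM in the normal livers, at 0.476, 0.257 and 0.214 FPKM in the Akt/Nras tumours and at 0.251, 0.182 and 0 FPKM in the Akt/Nras/Foxo1AAA tumours (18.1-fold and 39.5-fold lower than normal liver, limma adjusted p = 1.62e-07 and 1.79e-07). In the deposited coordinates no gene overlaps Klf1. Gcdh, a mitochondrial enzyme of lysine breakdown, lies 8006 bases away on the opposite strand and averaged 226 FPKM in normal liver, 22.3 FPKM in Akt/Nras tumours and 45.1 FPKM in Akt/Nras/Foxo1AAA tumours. The nearer neighbour Dnase2a, 3264 bases away on the same strand, averaged 7.45, 5.50 and 6.13 FPKM.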
